A study of Mus musculus with 28 samples.

Results

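Circadian clock genes were followed through the development of mouse peripheral nerve. The set held 10 genes chosen by name out of 41605 gene identifiers in the count table. Arntl (also named Bmal1) and Npas2 encode activators, Per1, Per2, Per3, Cry1 and Ciart encode repressors, Nr1d1 encodes a nuclear receptor of the secondary loop, and Dbp and Tef encode output transcription factors. All 10 were found and all 10 passed the filter on low counts that left 17700 genes tested. The measurement was poly-A RNA sequencing of whole nerve tissue, with 4 libraries at each of 7 stages and 28 libraries in all. The stages were labelled embryonic days (E) 13 and 17, for which the design text gives 13.5 and 17.5, and postnatal days (P) 1, 5, 14, 24 and 60. Every animal was C57BL/6J and none was treated. At E13, each library pooled various nerves distal to the dorsal root ganglia from 2 embryos, and these were not stripped of their sheaths. At E17, the sciatic nerves of 2 embryos were pooled, and from P1 on each library came from the sciatic nerves of 1 mouse. From E17 on, the epineurium and perineurium, the outer sheaths, were stripped off mechanically as far as possible, to enrich for the endoneurium. The animals lived in a 12 h dark-light cycle. The hour of dissection is not given in the sources used here, so the stage of a nerve and the hour of day at which it was taken cannot be told apart in any comparison below. In whole tissue, a lower level through fewer cells of a type and through less RNA per cell cannot be told apart either.

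Library totals ran from 13899895 to 37662780 reads counted in genes. Levels are given as CPM (counts scaled to library size), adjusted between libraries by the trimmed mean of M-values (TMM). Of the 10 genes, Npas2 was measured with the fewest reads, 22, 13, 10 and 11 in the 4 libraries at P60, so its level there is the least precise. Schwann cell markers (Sox10, S100b and Erbb3, summed) were present at every stage, at 188 to 499.5 CPM at E13 and 1166 to 1284 CPM at E17. The E13 libraries also carried neuron cell body markers (Snap25, Rbfox3, Tubb3 and Isl1, summed) at 632 to 1501 CPM, beside 12.3 to 18.2 CPM at E17, so E17 against E13 compares different tissue as well as different ages. In 3 libraries, values had a steep trend with transcript GC content. The slopes were -1.01 log2 units per 10 percentage points of GC in E13 replicate 1, 0.79 in E13 replicate 4 and -0.47 in P1 replicate 1, and lay between -0.18 and 0.22 in the others. GC content held 68.9%, 55.8% and 64.1% of the variance between genes in these 3, and also 51.5% in P1 replicate 4, 43.0% in P1 replicate 3 and 42.7% in P5 replicate 4, at smaller slopes.

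The circadian clock is a feedback loop of transcription that most cells carry. Arntl pairs with Clock or with its relative Npas2, binds E-box sequences and switches on the Per and Cry genes, whose proteins return to the nucleus and repress the same pair. Ciart (also named Chrono) is a further repressor of the pair. Nr1d1 (also named Rev-erb alpha) is switched on through E-boxes and represses Arntl through RORE sequences, which closes a secondary loop. Dbp and Tef are PAR bZIP factors that bind D-box sequences and pass the rhythm on to other genes. In rhythmic tissues, Arntl and Npas2 peak at an hour of the day roughly opposite to that of Nr1d1, Dbp and the Per genes, so a level in a single sample depends on when it was taken.

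The loop is known to work through short promoter sequences, and promoters are shown here for the members whose window carries such a match. RefSeq (GRCm38.p6) supplied 250 bases upstream of 12 start sites for 9 of the 10 genes, with no entry used for Per2. Motifs were searched on both strands, and their share is given among 32851 promoter windows of the same length. The E-box, spelled CACGTG, was held by 6.02% of all windows. Its variant the E'-box, searched as CACGTT, was held by 3.85%. The D-box, searched as TTATGTAA and as TTACGTAA, was held by 0.931%. The RORE core, searched as TAGGTCA and, in a further spelling, as TGGGTCA, was held by 5.38%. No match overlapped another in the windows of these genes. Of the 9 genes, 6 held a match, which is a description of letters and not of a bound site. Capitals mark the match in each sequence below, written 5′ to 3′ toward the start site.
Ciart (chr3:95882229-95882478, minus strand): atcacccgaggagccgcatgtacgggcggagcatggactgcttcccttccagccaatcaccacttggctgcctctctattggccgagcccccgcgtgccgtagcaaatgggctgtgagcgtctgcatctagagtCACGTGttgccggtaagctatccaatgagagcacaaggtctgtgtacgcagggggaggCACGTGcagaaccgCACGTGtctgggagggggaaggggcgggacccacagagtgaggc
Per3 (chr4:151044666-151044915, minus strand): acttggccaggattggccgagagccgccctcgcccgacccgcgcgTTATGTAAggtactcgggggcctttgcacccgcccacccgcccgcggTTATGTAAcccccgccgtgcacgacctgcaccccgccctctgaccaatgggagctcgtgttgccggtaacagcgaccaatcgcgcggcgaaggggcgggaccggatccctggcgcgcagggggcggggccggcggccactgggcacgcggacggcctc
Cry1 (chr10:85185055-85185304, minus strand): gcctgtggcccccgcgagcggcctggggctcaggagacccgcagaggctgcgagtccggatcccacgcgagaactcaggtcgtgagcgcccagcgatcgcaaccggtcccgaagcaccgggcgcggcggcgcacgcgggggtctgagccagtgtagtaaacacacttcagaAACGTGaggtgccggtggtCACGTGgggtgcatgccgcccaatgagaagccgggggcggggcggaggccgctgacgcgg
Per1, start site 1 (chr11:69098699-69098948, plus strand): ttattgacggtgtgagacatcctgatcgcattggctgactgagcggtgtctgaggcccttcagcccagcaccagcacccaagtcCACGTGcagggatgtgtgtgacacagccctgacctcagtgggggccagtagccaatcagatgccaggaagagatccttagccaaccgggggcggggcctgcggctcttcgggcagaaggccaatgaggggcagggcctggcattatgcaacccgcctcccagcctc
Nr1d1 (chr11:98775378-98775627, minus strand): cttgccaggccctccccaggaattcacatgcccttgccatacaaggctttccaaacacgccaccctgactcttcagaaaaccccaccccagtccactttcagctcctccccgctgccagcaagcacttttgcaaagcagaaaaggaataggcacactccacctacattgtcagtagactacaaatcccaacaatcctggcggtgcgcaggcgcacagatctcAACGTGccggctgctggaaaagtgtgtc
Tef, start site 2 (chr15:81811164-81811413, plus strand): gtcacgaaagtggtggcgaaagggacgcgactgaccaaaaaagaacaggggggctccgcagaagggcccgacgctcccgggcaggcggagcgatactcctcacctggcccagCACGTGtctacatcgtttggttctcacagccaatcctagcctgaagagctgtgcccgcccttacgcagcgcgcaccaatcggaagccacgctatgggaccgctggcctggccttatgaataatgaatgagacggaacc

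Ciart held 3 E-boxes, whose first bases lay at -116, -58 and -44 from the start site. Per3 held 2 D-boxes, at -205 and -158, and no E-box. Cry1 held an E-box at -60 and an E'-box at -79, Per1 an E-box at -166 of its start site 1, and Nr1d1 an E'-box at -28. Tef held an E-box before each of its 2 start sites, at -127 and -138. The windows of Arntl, Npas2 and Dbp held none of these letters.

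**Figure D1:**
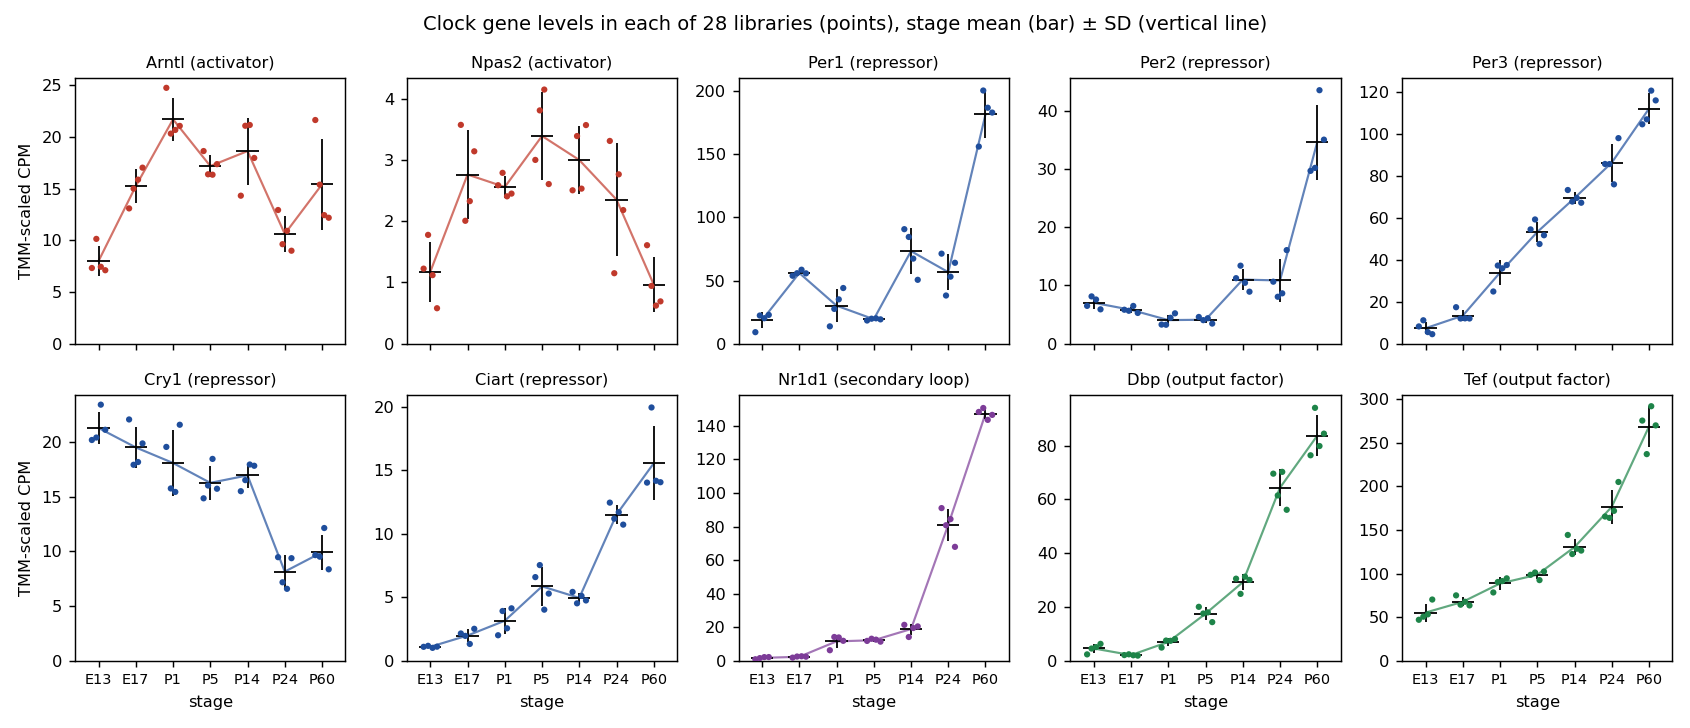
Level of each clock gene in the 28 libraries by stage, in TMM-scaled CPM on a linear axis that starts at 0. Points are libraries, horizontal bars are stage means and vertical lines are ± SD (n = 4). At P60, the 4 libraries of Nr1d1 sat between 144 and 151 CPM, while those of Npas2 sat between 0.622 and 1.61 CPM.

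From birth to the young adult, 7 of the 10 genes rose and 1 fell. P60 was compared with P1 by edgeR's quasi-likelihood test in a fit over all 28 libraries. A gene was called where its Benjamini-Hochberg adjusted p was under 0.05 over all genes tested and it differed by at least 2-fold. Of all genes tested, 35.5% were called in this comparison, 20.3% higher and 15.2% lower. The risers were Nr1d1, Dbp, Per2, Per1, Ciart, Per3 and Tef, and Npas2 fell. Arntl and Cry1 were lower at P60 with an adjusted p under 0.05 but short of 2-fold, and were not called. The median log2 fold change of the 10 genes was 2.01, beside -0.02 over all genes. When all stages were tested together, all 10 were called, beside 70% of all genes, which required an adjusted p under 0.05 and stage means at least 1 log2 unit apart.

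Among the activators, Arntl (ENSMUSG00000055116, chr7:113207465-113314126, plus strand) had its lowest level at E13 and its highest at P1. The E13 libraries measured 7.32, 10.1, 7.44 and 7.10 CPM in the order of replicates 1 to 4. The E17 libraries measured 13.1, 15.0, 15.9 and 17.03 CPM, and those of P1 24.7, 20.3, 20.7 and 21.1 CPM. Every E17 library stood above every E13 library and every P1 library above every E17 library, with a log2 fold change of 0.93 (SE 0.17, adjusted p = 3.06e-05) for E17 against E13 and a log2 fold change of 0.51 (SE 0.16, adjusted p = 0.0199) for P1 against E17, both short of the 2-fold minimum. Without E13 replicate 2, the first of these was 1.04 and was called. The P5 libraries ranged from 16.3 to 18.6 CPM and the P14 libraries from 14.3 to 21.2 CPM. At P24 the values were 12.9, 9.62, 10.9 and 8.99 CPM and at P60 21.6, 15.4, 12.4 and 12.2 CPM. The P24 libraries lay below every P14 library, with a log2 fold change of -0.82 (SE 0.17, adjusted p = 0.00261), again short of 2-fold. At P60, replicate 1 stood above the other libraries of its stage and the 4 values overlapped those of P24 and P14. P60 differed from P24 by a log2 fold change of 0.54 (SE 0.17, adjusted p = 0.0278) and from P1 by a log2 fold change of -0.50 (SE 0.17, adjusted p = 0.0115), both short of 2-fold. In the order of its stage means, P1 was followed by P14, P5, P60, E17, P24 and E13, and among these neighbors E17 and P24 alone did not overlap.

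Npas2 (ENSMUSG00000026077, chr1:39193731-39363236, plus strand) had the lowest mean CPM of the 10 genes at every stage from P1 on, while Ciart lay below it at E13 and Ciart, Dbp and Nr1d1 did at E17. It measured 1.23, 1.78, 1.12 and 0.579 CPM at E13 and 3.57, 2.01, 2.33 and 3.14 CPM at E17, and rose between them with a log2 fold change of 1.21 (SE 0.31, adjusted p = 0.00161). From E17 to P24 its libraries ranged from 1.15 to 4.15 CPM, and none of the 4 comparisons of adjacent stages in that span was called. At P24 the values were 3.31, 1.15, 2.77 and 2.18 CPM. At P60 they were 1.61, 0.943, 0.622 and 0.691 CPM, and the fall was called with a log2 fold change of -1.28 (SE 0.34, adjusted p = 0.00931), although the lowest P24 library lay inside the P60 range. Npas2 was also the member that fell between P1, with 2.59, 2.79, 2.41 and 2.45 CPM, and P60 (log2 fold change -1.42, SE 0.33, adjusted p = 0.000631). The rise from E13 to E17 fell short of 2-fold without the 3 libraries with the steepest GC slopes, at a log2 fold change of 0.93, and with scaling by library size alone, at 0.96.

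Of the 5 repressors, 4 rose between P1 and P60 and Cry1 was not called. Per1 (ENSMUSG00000020893, chr11:69095217-69109960, plus strand), a period gene that also responds quickly to light and to hormones, rose in 3 separate intervals. It measured 9.11, 22.3, 20.1 and 22.8 CPM at E13 and 53.8, 55.8, 58.5 and 55.7 CPM at E17, and rose 3.02-fold (log2 fold change 1.59, SE 0.27, adjusted p = 1.06e-05). At P1 the values spread widely, with 13.7, 27.5, 35.1 and 44.1 CPM, all below the E17 libraries, and a log2 fold change of -0.89 (SE 0.26, adjusted p = 0.0104). This was called without P1 replicate 4 (-1.14) and with scaling by library size alone (-1.02). Over the alternatives, the log2 fold change lay between -1.14 and -0.66. The P1 values rose in the order of the GC slopes of their libraries, -0.47, 0.06, 0.19 and 0.22. Per1 had the highest transcript GC content of the set, 58.8%, and the part of GC content in these values was not tested. The P5 libraries lay close together at 18.3, 19.8, 20.1 and 19.2 CPM. At P14 they measured 90.6, 84.5, 67.3 and 50.6 CPM, all above P5, and the rise was called (log2 fold change 1.92, SE 0.27, adjusted p = 3.36e-06). At P24 the values were 71.3, 38.1, 53.0 and 64.0 CPM and overlapped those of P14. The P60 libraries measured 156, 200.4, 187 and 183 CPM, all above every earlier library, 3.21-fold above P24 (log2 fold change 1.68, SE 0.26, adjusted p = 3.93e-05) and 6.03-fold above P1 (log2 fold change 2.59, SE 0.27, adjusted p = 4.78e-09).

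Per2 (ENSMUSG00000055866, chr1:91415982-91459324, minus strand), another period gene, rose from P5 to P14 and from P24 to P60, as Per1 did. Its libraries ranged from 5.89 to 8.12 CPM at E13, 5.28 to 6.48 CPM at E17, 3.25 to 5.21 CPM at P1 and 3.45 to 4.59 CPM at P5. At P14 it measured 11.2, 13.4, 10.46 and 8.93 CPM, all above P5 (log2 fold change 1.42, SE 0.20, adjusted p = 3.72e-06). The P24 libraries, 10.6, 8.05, 8.64 and 16.1 CPM, overlapped those of P14, and replicate 4 was the highest among them. At P60 the values were 29.7, 30.2, 43.5 and 35.0 CPM, every one above all earlier libraries (log2 fold change 1.67, SE 0.20, adjusted p = 5.58e-07 against P24, and log2 fold change 3.09, SE 0.21, adjusted p = 6.45e-13 against P1). The fold against P1 was 8.52.

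Per3 (ENSMUSG00000028957, chr4:151003652-151044665, minus strand), the remaining period gene, was higher at each stage than at the one before, with no overlap of libraries between any adjacent stages. The values were 8.21, 11.1, 5.52 and 4.53 CPM at E13, 17.4, 11.99, 12.1 and 12.001 CPM at E17 and 24.9, 37.2, 35.9 and 37.5 CPM at P1. The step from E17 to P1 was the one that was called (log2 fold change 1.34, SE 0.18, adjusted p = 2.26e-06). That from E13 to E17 was 0.85 with all libraries and reached a called 1.10 without E13 replicate 2, and limma-voom with all libraries called it as well. The later libraries ranged from 47.5 to 59.2 CPM at P5, 67.2 to 73.2 CPM at P14, 75.9 to 97.9 CPM at P24 and 105 to 121 CPM at P60. P60 was 3.31-fold above P1 (log2 fold change 1.72, SE 0.18, adjusted p = 4.82e-09). The annotated span of Per3 overlaps that of Camta1 on the same strand, and whether their exons overlap was not examined. Camta1 averaged 63.9 ± 28.8 CPM (SD, n = 4) at E13, 13.1 ± 1.68 CPM at P1 and 25.9 ± 2.44 CPM at P60, so it was higher at P60 than at P1, as Per3 was, and highest at E13, where Per3 was lowest. Any part of Camta1 reads in the level of Per3 was not tested.

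Cry1 (ENSMUSG00000020038, chr10:85131700-85185064, minus strand), a cryptochrome that represses the activator pair, fell in a single interval, from P14 to P24. Its libraries ranged from 20.2 to 23.4 CPM at E13, 17.9 to 22.0 CPM at E17, 15.4 to 21.6 CPM at P1, 14.8 to 18.4 CPM at P5 and 15.5 to 17.9 CPM at P14, and adjacent stages overlapped throughout. At P14 it measured 15.5, 16.5, 17.9 and 17.8 CPM and at P24 9.46, 7.17, 6.57 and 9.37 CPM, a fall of 2.08-fold with no overlap (log2 fold change -1.06, SE 0.14, adjusted p = 1.59e-05). It is close to the 2-fold minimum, and the log2 fold change was -0.97 without P24 replicate 3 and -0.99 with scaling by library size alone, which ends the call. At P60 the values were 9.65, 9.51, 12.1 and 8.35 CPM and overlapped those of P24. Between P1 and P60 the difference was short of 2-fold (log2 fold change -0.87, SE 0.14, adjusted p = 5.6e-06), and with scaling by library size alone it was -1.06 and was called.

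Ciart (ENSMUSG00000038550, chr3:95878503-95882251, minus strand), whose promoter carries the 3 E-boxes, was higher at each stage up to P5, short of 2-fold at each step with all libraries, and rose by over 2-fold from P14 to P24. It measured 1.09, 1.17, 1.01 and 1.11 CPM at E13, 2.14, 1.95, 1.32 and 2.51 CPM at E17 and 2.00, 3.91, 2.55 and 4.13 CPM at P1, and the values of E17 and P1 overlapped. The P5 libraries measured 6.59, 7.53, 4.02 and 5.29 CPM and the P14 libraries 5.42, 4.52, 5.11 and 4.75 CPM. The log2 fold changes were 0.84 for E17 against E13 (SE 0.24, adjusted p = 0.00418), 0.68 for P1 against E17 (SE 0.23, adjusted p = 0.0227) and 0.90 for P5 against P1 (SE 0.21, adjusted p = 0.0031), all with an adjusted p under 0.05. The last of these passed 2-fold and was called without P1 replicate 2 (1.01), P1 replicate 4 (1.06) or P5 replicate 3 (1.04). Among adjacent stages, the step that was called led to 12.5, 11.2, 11.7 and 10.7 CPM at P24 (log2 fold change 1.22, SE 0.21, adjusted p = 0.000396), with every P24 library above every P14 library. At P60 the values were 14.03, 19.95, 14.2 and 14.1 CPM, with replicate 2 above the rest, and P60 was 4.93-fold above P1 (log2 fold change 2.30, SE 0.22, adjusted p = 5.44e-10). C920021L13Rik, a transcript annotated on the opposite strand, overlaps the span of Ciart and held fewer reads than Ciart over all libraries.

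Nr1d1 (ENSMUSG00000020889, chr11:98767932-98775333, minus strand), the repressor of Arntl in the secondary loop, had the largest fold change of the 10 genes between P1 and P60, with that of Dbp next to it. It measured 0.861, 1.53, 2.13 and 2.16 CPM at E13 and 1.81, 2.48, 2.64 and 2.39 CPM at E17. At P1 the values were 6.23, 14.1, 13.9 and 11.9 CPM, all above E17, a rise of 4.91-fold (log2 fold change 2.29, SE 0.23, adjusted p = 8.23e-09). Between P1 and P14 no adjacent step was called, and the P5 libraries ranged from 11.3 to 13.1 CPM. The P14 libraries measured 21.4, 14.1, 19.5 and 20.4 CPM and the P24 libraries 91.0, 80.8, 84.4 and 67.9 CPM, a 4.29-fold rise with a wide gap between the groups (log2 fold change 2.10, SE 0.20, adjusted p = 1.92e-07). At P60 the 4 libraries lay close together at 148, 151, 144 and 147 CPM, above every P24 library, with a log2 fold change of 0.86 (SE 0.19, adjusted p = 0.00221), short of 2-fold. P60 was 12.8-fold above P1 (log2 fold change 3.68, SE 0.22, adjusted p = 3.79e-14). Nr1d1 overlaps Thra on the opposite strand, and whether reads were counted by strand is not given in the sources used here. Thra averaged 194 ± 77.4 CPM at E13, 87.1 ± 15.4 CPM at P1, 114 ± 8.24 CPM at P14, 117 ± 11.1 CPM at P24 and 164 ± 8.62 CPM at P60. Its mean differed little between P14 and P24, and was higher at P60 than at P1 and P24, as that of Nr1d1 was. The part of Thra reads in the level of Nr1d1 was not tested.

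**Figure D2:**
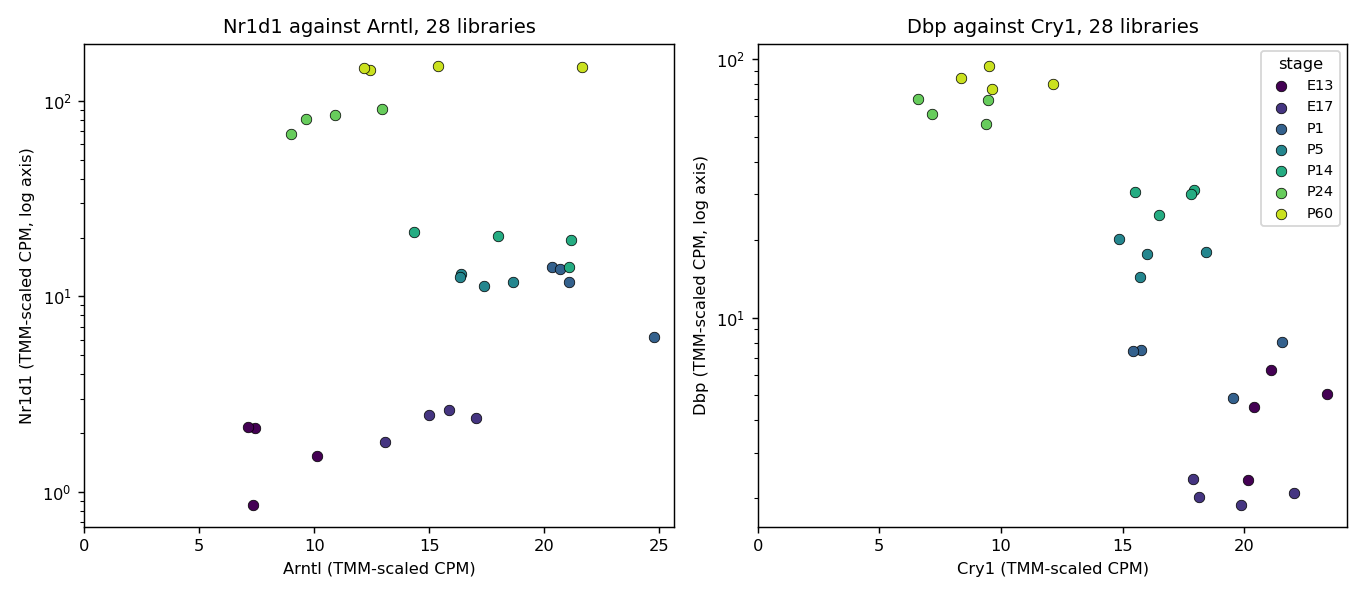
Nr1d1 against Arntl (left) and Dbp against Cry1 (right) in the 28 libraries, colored by stage, in TMM-scaled CPM with a linear x axis and a log y axis. At P24 and P60 the libraries sit high on the y axis and those of Cry1 at or below 12.1 CPM, while Arntl at P60 runs from 12.2 to 21.6 CPM at nearly constant Nr1d1.

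Dbp (ENSMUSG00000059824, chr7:45705088-45710203, plus strand), the output factor that binds D-boxes, fell between E13 and E17 and rose in 3 later intervals. It measured 2.35, 4.52, 5.06 and 6.26 CPM at E13 and 2.09, 2.38, 2.02 and 1.89 CPM at E17, and the fall was called (log2 fold change -1.10, SE 0.21, adjusted p = 6.38e-05), although E13 replicate 1 lay inside the E17 range. Without E13 replicate 4 this fall was short of 2-fold, at -0.92. The E13 values rose in the order of the GC slopes of their libraries, -1.01, 0.08, 0.13 and 0.79, and the part of GC content in them was not tested. At P1 the values were 4.88, 7.50, 7.40 and 8.07 CPM, above all E17 libraries (log2 fold change 1.73, SE 0.21, adjusted p = 2.68e-07). The P5 libraries measured 20.1, 17.6, 18.0 and 14.4 CPM (log2 fold change 1.33, SE 0.18, adjusted p = 6.58e-06), and with all libraries no other of the 10 genes was called between P1 and P5. The P14 libraries measured 30.5, 24.9, 31.3 and 30.1 CPM, above P5 with a log2 fold change of 0.74 (SE 0.18, adjusted p = 0.0023), short of 2-fold. At P24 they measured 69.6, 61.5, 70.3 and 56.2 CPM (log2 fold change 1.14, SE 0.18, adjusted p = 0.000138) and at P60 76.5, 94.1, 79.9 and 84.5 CPM, above P24 with a log2 fold change of 0.38 (SE 0.18, adjusted p = 0.156). P60 was 12.01-fold above P1 (log2 fold change 3.59, SE 0.20, adjusted p = 9.59e-15). Dbp overlaps Sphk2 on the opposite strand, which averaged 18.4 ± 5.71 CPM at P1, 32.5 ± 5.39 CPM at P14 and 24.6 ± 5.15 CPM at P60.

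Tef (ENSMUSG00000022389, chr15:81802421-81826863, plus strand), the other PAR bZIP factor of the set, was already well expressed in the embryo and rose slowly. It measured 47.0, 50.5, 53.2 and 70.2 CPM at E13, 78.3, 90.3, 91.4 and 94.5 CPM at P1 and 276, 237, 292 and 270.1 CPM at P60. None of the 6 steps between adjacent stages reached 2-fold, and the P60 libraries stood above all others, 3.03-fold above P1 (log2 fold change 1.60, SE 0.11, adjusted p = 1.33e-12). The intermediate stages ranged from 63.5 to 75.0 CPM at E17, 92.5 to 102 CPM at P5, 122 to 144 CPM at P14 and 164 to 205 CPM at P24.

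Read by interval, the calls below rest on the 2-fold minimum, and differences between members or intervals were not tested. Between E13 and E17, 3 of the 10 were called (Npas2 and Per1 higher, Dbp lower), beside 35.5% of all genes, 14.2% higher and 21.2% lower. Without E13 replicate 2 there were 5, with Arntl (1.04) and Per3 (1.10) also higher on the log2 scale, and without E13 replicate 4 there were 2. Between E17 and P1, 3 were called, all higher (Per3, Nr1d1 and Dbp), beside 11.7% of all genes, 6.31% higher and 5.41% lower. Without P1 replicate 4 there were 4, with Per1 lower at a log2 fold change of -1.14. From P1 to P5 there was 1, higher (Dbp), beside 5.84% of all genes, 4.05% higher and 1.79% lower. There were 2, with Ciart also higher, without P1 replicate 2, P1 replicate 4 or P5 replicate 3. From P5 to P14 there were 2, both higher (Per1 and Per2), beside 12%, 7.11% higher and 4.91% lower. The interval from P14 to P24 had 4, with Nr1d1, Ciart and Dbp higher and Cry1 lower, beside 2.65% of all genes, 1.51% higher and 1.14% lower. Without P24 replicate 3, or with scaling by library size alone, there were 3, as Cry1 was short of 2-fold. From P24 to P60 there were 3, with Per1 and Per2 higher and Npas2 lower, beside 5.96%, 2.55% higher and 3.41% lower. Each stage except E13 and P60 serves in both of its adjacent comparisons, and P1 and P60 serve again in the comparison across postnatal life. The medians of the 10 log2 fold changes were 0.67 (E17 against E13), 0.45 (P1 against E17), 0.12 (P5 against P1), 0.39 (P14 against P5), 0.15 (P24 against P14) and 0.49 (P60 against P24), where those of all genes lay between -0.08 and 0.00.

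**Figure D3:**
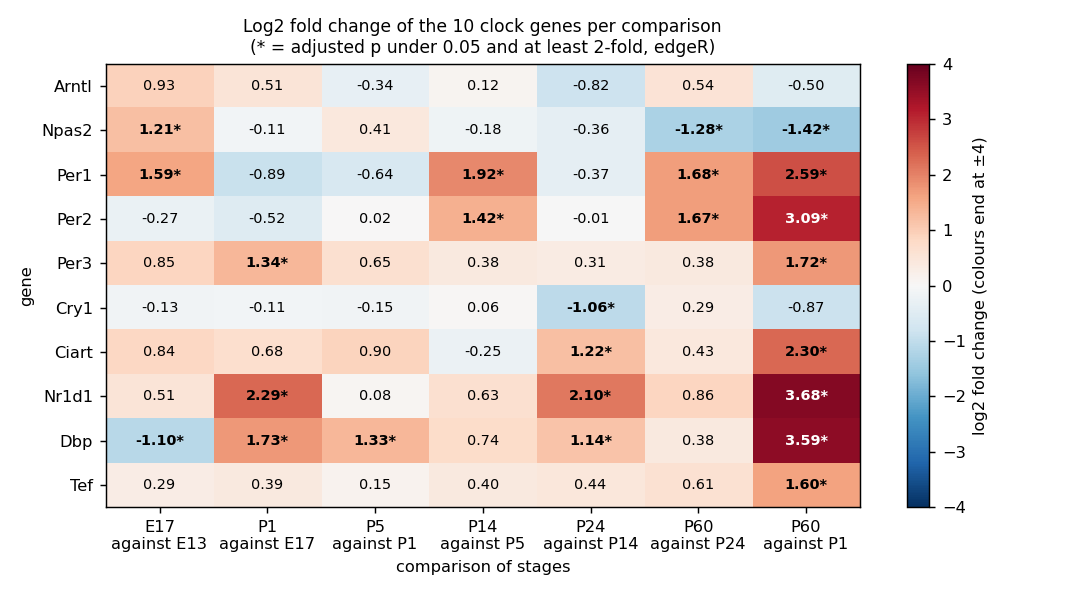
Log2 fold change of the 10 clock genes in the 7 comparisons of stages, with colors that end at ± 4. A star marks an adjusted p under 0.05 (edgeR) and at least 2-fold. Between P1 and P60, 8 of the 10 genes carry a star, and Arntl carries none in any comparison.

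Per kilobase of exon, the order of the 10 genes changed with age. Values in this paragraph are levels in RPKM, the scaled CPM divided by the exon length of the annotation in kilobases, as mean ± SD (n = 4). At E13 the highest were Tef at 7.02 ± 1.31 and Cry1 at 6.37 ± 0.442, whose libraries overlapped, and Nr1d1 had rank 8 at 0.543 ± 0.199. At P60 Nr1d1 was the highest at 47.9 ± 0.968, with no overlap with the next. Tef at 34.2 ± 2.93, Per1 at 32.2 ± 3.30 and Dbp at 27.98 ± 2.56 followed, each overlapping its neighbor in the order. Per3 at 11.7 ± 0.785 stood apart from Dbp above it and from Ciart below it, and Ciart at 6.88 ± 1.30 overlapped Per2 at 5.91 ± 1.10. The lowest at P60 were Cry1 at 2.97 ± 0.476, Arntl at 2.05 ± 0.585 and Npas2 at 0.202 ± 0.0939, the last with no overlap with Arntl.

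Other genes of the clock pathway were read from a list of 21, all of which were tested. Between P1 and P60, 11 of the 21 were called, 7 higher and 4 lower, with a median log2 fold change of 0.25, beside 35.5% of all genes called. In the adjacent intervals, taken in order of age, 4 were called higher and 4 lower (E17 against E13), 1 and 3 (P1 against E17), 1 and 0 (P5 against P1), 4 and 1 (P14 against P5), 1 and 1 (P24 against P14) and 3 and 1 (P60 against P24). The shares of all genes called in the same intervals were 35.5%, 11.7%, 5.84%, 12%, 2.65% and 5.96%. Clock, the partner of Arntl, rose between E13, at 24.2 ± 15.2 CPM (SD, n = 4), and E17, at 62.0 ± 4.09 CPM (log2 fold change 1.35, SE 0.24, adjusted p = 2.63e-05), and averaged 114 ± 6.68 CPM at P60. Arntl2, a relative of Arntl, rose from 2.41 ± 0.368 CPM at P1 to 8.07 ± 0.781 CPM at P60 (log2 fold change 1.74, SE 0.19, adjusted p = 1.07e-08). Cry2, the second cryptochrome, rose from 56.1 ± 2.20 CPM at P24 to 124 ± 13.9 CPM at P60 (log2 fold change 1.14, SE 0.13, adjusted p = 3.61e-07), and its log2 fold change from P1 to P60 was 1.78, where that of Cry1 was -0.87. The difference between the cryptochromes was not tested.

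In the secondary loop, Nr1d2, the close relative of Nr1d1, rose before birth, from 12.5, 6.30, 6.17 and 3.16 CPM at E13 to 25.3, 25.3, 22.97 and 26.5 CPM at E17 (log2 fold change 1.81, SE 0.22, adjusted p = 6.66e-08). It averaged 48.9 ± 6.85 CPM at P1 and 141 ± 4.80 CPM at P60 (log2 fold change 1.52, SE 0.21, adjusted p = 4.8e-07). Rora and Rorb encode ROR receptors, which activate Arntl through the same RORE sequences that Nr1d1 uses, and they went in different directions. Rora rose from 5.49 ± 0.646 to 35.7 ± 3.03 CPM between P1 and P60 (log2 fold change 2.70, SE 0.28, adjusted p = 2.8e-09). Rorb fell from 0.492 ± 0.154 to 0.0471 ± 0.0942 CPM (log2 fold change -3.16, SE 0.84, adjusted p = 0.00193), at levels near those of a few reads.

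Among genes that share D-boxes with Dbp and Tef, Hlf rose and Nfil3 fell between P1 and P60. Hlf, the remaining PAR bZIP factor, measured 18.0, 14.1, 13.4 and 10.7 CPM at E13 and 1.65, 1.95, 1.13 and 1.32 CPM at E17 (log2 fold change -3.23, SE 0.19, adjusted p = 4.05e-14), and then rose to 28.5, 22.9, 24.8 and 37.7 CPM at P24 and 51.6, 42.0, 47.5 and 52.9 CPM at P60 (log2 fold change 4.11, SE 0.18, adjusted p = 8.57e-17 against P1). Nfil3, a repressor that competes with these factors for D-boxes, fell from 3.76 ± 1.05 CPM at P1 to 1.51 ± 0.673 CPM at P60 (log2 fold change -1.32, SE 0.36, adjusted p = 0.00233). Between P14 and P24, Hlf rose by 1.08 and Nfil3 had a log2 fold change of -1.36, and these were the 2 genes of the list called in that interval. The bHLH repressors that bind E-boxes also rose, Bhlhe40 from 14.7 ± 0.442 to 87.0 ± 10.3 CPM and Bhlhe41 from 1.496 ± 0.415 to 27.2 ± 0.960 CPM between P1 and P60, with log2 fold changes of 2.56 and 4.19.

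Other listed genes act on clock proteins after they are made or are linked to the clock in other ways. Csnk1d, Csnk1e and Gsk3b (kinases) and Btrc and Fbxw11 (subunits of ubiquitin ligases) were called in no comparison of a pair of stages, and of these Csnk1e was called when all stages were tested together, with its highest mean at E13 and its lowest at P24. Fbxl21, an F-box protein, rose between E17 and P1 (log2 fold change 1.48, SE 0.22, adjusted p = 9.54e-06). Timeless, which also works in DNA replication, fell between P1 and P60 (log2 fold change -2.45, SE 0.17, adjusted p = 1.02e-12), as did Noct, which encodes nocturnin (log2 fold change -1.41, SE 0.16, adjusted p = 2.95e-08). Wee1, a kinase that holds back mitosis, fell between E17 and P1 with a log2 fold change of -1.11 and rose between P24 and P60 with 1.29. Usp2, a deubiquitinase, rose between E13 and E17 with 1.94, and Nampt, an enzyme of NAD synthesis, was called in no comparison of a pair of stages but was called when all stages were tested together, with its lowest mean at E13 and its highest at P60.

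**Figure D4:**
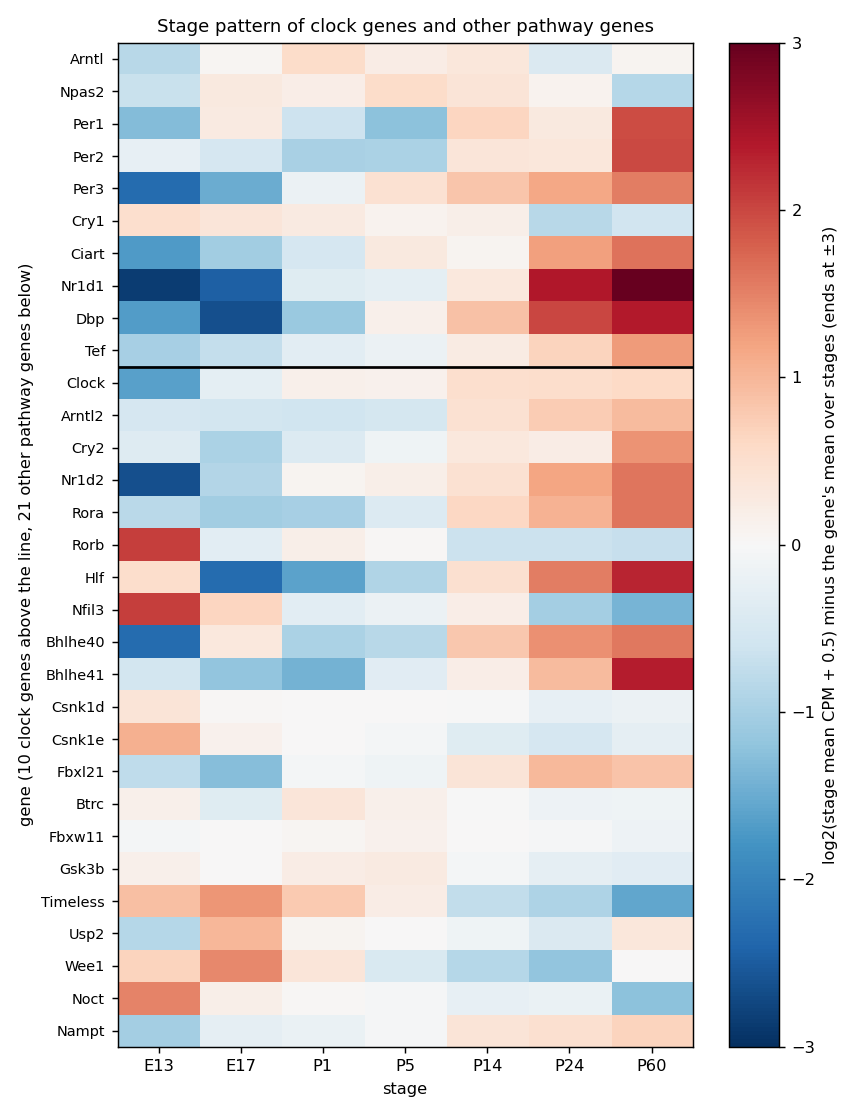
Stage pattern of the 10 clock genes (above the line) and 21 other pathway genes (below it), as log2 of the stage mean CPM plus 0.5, minus the mean of that gene over the 7 stages, with colors that end at ± 3. Nr1d1, Dbp, Nr1d2 and Bhlhe41 run from blue before birth to red at P60, while Nfil3, Noct and Timeless run from red before birth to blue at P60.

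Markers of several cell types moved along the same timeline. The summed level of adipocyte markers (Adipoq, Plin1, Cidec and Ucp1) was 0.0286 to 6.80 CPM at P5, 1.33 to 56.6 CPM at P14, 1.41 to 74.0 CPM at P24 and 51.4 to 144 CPM at P60, and Plin1 and Ucp1 were at 0 in every E17 library. P24 replicate 2 held 1.41 CPM of these, and its Nr1d1 level of 80.8 CPM and Dbp level of 61.5 CPM lay inside the range of the other libraries of its stage. This library was the lowest of P24 for Per1 (38.1 CPM), Per2 (8.05 CPM), Npas2 (1.15 CPM) and Tef (164 CPM). By the summed marker lists, it was also the lowest of P24 in perineurial (137 CPM), endothelial (144 CPM), mesenchymal (1762 CPM), pericyte and smooth muscle (364 CPM) and macrophage (65.5 CPM) markers, and the highest in Schwann cell markers (1723 CPM). P14 replicate 4 held 1.33 CPM, with Nr1d1 at 20.4 and Dbp at 30.1 CPM, inside the range of its stage. It was the lowest of P14 for Per1 (50.6 CPM), Per2 (8.93 CPM) and Per3 (67.2 CPM) and the highest for Npas2 (3.57 CPM). By the summed marker lists, this library was also the highest of P14 in mesenchymal (4099 CPM), macrophage (97.6 CPM) and proliferation (122 CPM) markers. Endothelial markers (Pecam1, Cdh5 and Cldn5, summed) went from 104 to 126 CPM at P1 to 283 to 304 CPM at P60, perineurial markers (Slc2a1, Cldn1 and Lypd2) from 71.9 to 99.6 to 292 to 506 CPM, and endoneurial mesenchymal markers (Pdgfra, Col1a1 and Sox9) from 2423 to 4997 to 990.3 to 1228 CPM. Pericyte and smooth muscle markers (Pdgfrb, Acta2 and Rgs5) went from 159.8 to 175 to 479 to 516 CPM and macrophage markers (Ptprc, Cd68 and Csf1r) from 47.1 to 60.5 to 69.5 to 96.1 CPM. The proliferation markers Mki67 and Top2a, summed, went from 1727 to 1806 CPM at E17 to 2.55 to 4.14 CPM at P60. Skeletal muscle markers (Acta1, Ckm, Myh1, Myh4 and Mylpf) held 10.4 to 234 CPM at E13 and 0.497 to 1.95 CPM at P60. The part of these cell types in the levels of the clock genes was not tested.

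Libraries of the same stage also differed in their clock genes, and to unequal degrees. Over the 24 libraries from E17 to P60, the SD of log2 CPM around the stage mean was 0.41 for Npas2, 0.38 for Per1, 0.32 for Ciart, 0.28 for Per2, 0.28 for Nr1d1, 0.23 for Arntl, 0.19 for Dbp, 0.19 for Cry1, 0.18 for Per3 and 0.12 for Tef. The median over all genes tested was 0.21, and the 10 genes ranged from the 19.5th percentile (Tef) to the 73.4th (Npas2). At P1, replicate 1, the library with the GC slope of -0.47, was the highest for Arntl and the lowest for Per1, Per3, Nr1d1, Dbp, Tef and Ciart. Of the 24 libraries, it lay farthest from the stage mean for Per1 (-1.01), Nr1d1 (-0.81), Ciart (-0.57), Dbp (-0.48) and Per3 (-0.43). The SDs of these genes include it, and SDs without it are not given. Without it the same number of members, 3, was called against E17 and the same number, 8, between P1 and P60.

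Whether members varied together between libraries of one stage (pools of 2 embryos at E17, single mice later) was asked of Arntl and each of the 9 others. Deviations of log2 CPM from the stage mean were correlated over the 24 libraries, with p-values from 100000 two-sided permutations within stages and Benjamini-Hochberg adjustment over the 9 pairs. Arntl and Per3 varied inversely, with Pearson's r = -0.52 (permutation p = 0.00145, adjusted p = 0.013) and Spearman's rho = -0.56 (permutation p = 0.00449, adjusted p = 0.0404), and had opposite signs in 18 of 24 libraries. Without the 2 libraries farthest from the median of Arntl, r was -0.60 (permutation test, adjusted p = 0.0446) and rho was -0.49 (permutation test, adjusted p = 0.128). Without P1 replicate 1 it was -0.50 (permutation test, adjusted p = 0.0756), with scaling by library size alone -0.49 (permutation test, adjusted p = 0.0581), and with all 28 libraries -0.05 (permutation test, adjusted p = 0.966), so the call did not hold without that library, under that scaling or with E13 included. The permutations took no account of replicate numbers. No other pair passed over the 24 libraries, while without the 2 farthest Arntl and Tef had r = -0.68 (permutation test, adjusted p = 0.0446) and rho = -0.57 (permutation test, adjusted p = 0.128). Arntl and Tef had r = -0.51 (permutation p = 0.0383, adjusted p = 0.164) and rho = -0.50 (permutation p = 0.0334, adjusted p = 0.15), and Arntl and Npas2 had r = 0.52 (permutation p = 0.0547, adjusted p = 0.164) and rho = 0.40 (permutation p = 0.111, adjusted p = 0.334). For Per1, Per2, Cry1, Ciart, Nr1d1 and Dbp, r lay between -0.28 and 0.04.

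**Figure D5:**
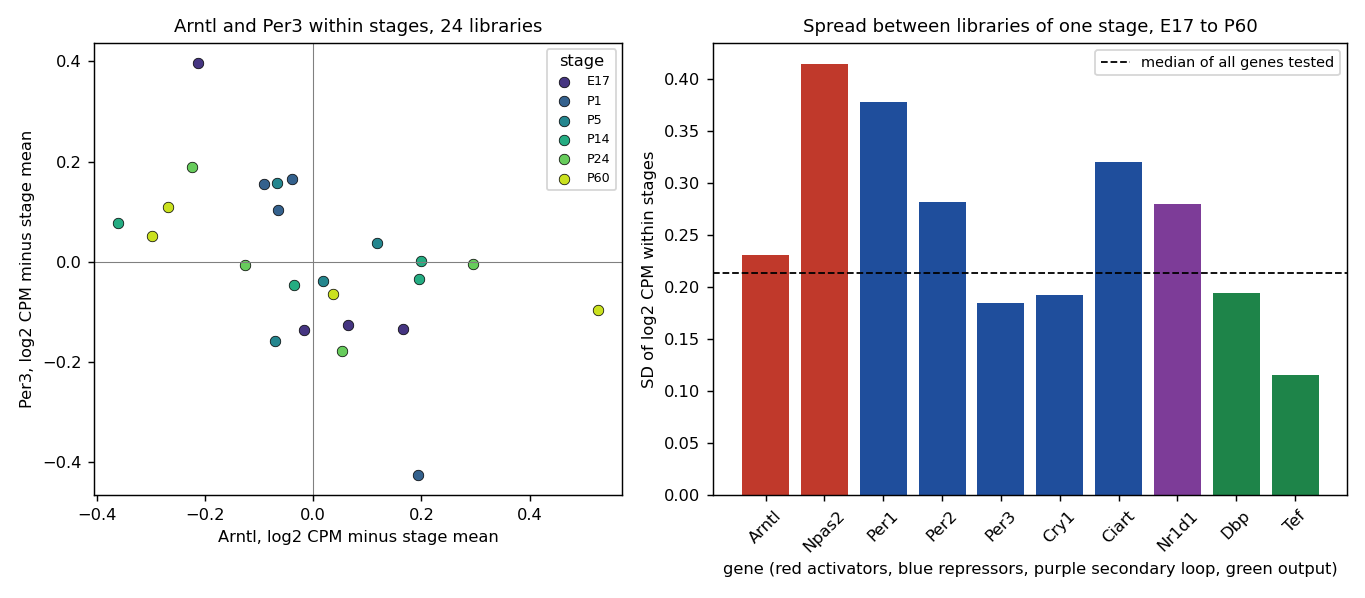
Left, deviation of Arntl and Per3 from their stage means in 24 libraries (E17 to P60), in log2 CPM, colored by stage, with the P1 library at the lower right being replicate 1. Right, SD of log2 CPM within stages for each of the 10 genes (bars from 0), with the median of all genes tested, 0.21, as a dashed line, which Per3, Cry1, Dbp and Tef stayed under.

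By the pattern over all 28 libraries, the genes most like Arntl and Dbp were looked for among 11283 others with a mean of at least 5 CPM, by Pearson's correlation of log2 CPM. The clock genes followed here and the other pathway genes listed above were left out of this search. Whether any of them lay nearer to Arntl or to Dbp was not tested. The points share their libraries and depth, and a correlation across 7 ages is given as a description. The 5 nearest to Arntl were Sat1 (r = 0.84), which acetylates polyamines, Abcc4 (0.84), a membrane transporter, Limd1 (0.83), a LIM domain protein, Igsf11 (0.82), a cell adhesion protein, and Klf13 (0.82), a transcription factor. Sat1 averaged 43.8 CPM at E13, 389.6 CPM at P1 and 168 CPM at P24, the shape of low, high and lower again that Arntl had. The 5 nearest to Dbp were Vwf (r = 0.99), von Willebrand factor of endothelial cells, Pink1 (0.98), a mitochondrial kinase, Clstn1 (0.98), a calsyntenin, Pip4k2c (0.98), a lipid kinase, and Vamp5 (0.98), a SNARE protein. Vwf averaged 13.3 CPM at E13, 3.99 CPM at E17, 115 CPM at P14 and 259 CPM at P60, with the dip at E17 that Dbp showed.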

How the data were processed

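The values used were the raw read counts per gene as the authors deposited them, for 28 libraries of mouse nerve. Per the study's methods, the authors used a TruSeq kit that keeps strand and a HiSeq4000 (single-end), trimmed adapters and poor tails, aligned with STAR (2.6.1c) and counted with featureCounts. The submitters' processing notes name GRCm38.p5, while the study's methods give a human build name, and strand and multimapping settings are not given in the sources used here. Of 41605 gene identifiers, 41519 matched GENCODE M21 (GRCm38), which supplied symbols, 1-based coordinates and exon lengths.

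The 10 genes, the 21 pathway genes and the marker lists were chosen with earlier results of these data known. Some listed genes and markers are not reported here and were left out of the counts and sums. All 10 and 21 are named in the text, as are the 5 genes nearest to Arntl and to Dbp among the genes searched. Counts were filtered (filterByExpr), scaled by TMM and fitted by stage over all 28 libraries in edgeR 4.0.16 (quasi-likelihood F test, robust, R 4.3.3), with Benjamini-Hochberg adjustment over 17700 genes. Standard errors were derived from the log2 fold change and its F statistic. The common dispersion was 0.0439. Log2 CPM for spread and correlations used a prior count of 2. The study states equal numbers of each sex per stage, but the labels of single libraries give none, and sex was not used. Library totals from 13899895 to 37662780 set the counting precision, and the libraries of a stage came from separate animals or pools. Replicate numbers in the labels were checked for pairing (median correlation of same-numbered libraries 0.08, of others -0.04). Of 28 libraries, 17 matched their own number best. The numbers mark no stated litter or day, so they were not treated as pairs. A fit with a replicate block, given below, covers the calls and not the correlations with Arntl. The statistical steps were tested on simulated data. Alternatives were scaling by DESeq2 size factors or library size only, 2 other filters, the DESeq2 1.42.0 Wald test, limma-voom (3.58.1), fewer libraries, a replicate block, no fold minimum and each replicate left out. Sequences came from RefSeq (GRCm38.p6).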

Additional observations from a re-analysis of the deposited data

Results flagged for a closer look

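In 5 of 70 groups of 4 libraries (10 genes at 7 stages), 1 library lay so far from the rest that its gap to the nearest, over the range of the group, passed Dixon's 95% critical value. Chance marks about 1 group in 20. Arntl measured 10.1 CPM in E13 replicate 2, where the others of its stage measured 7.10 to 7.44 CPM (gap over range 0.89). This library also held the most skeletal muscle markers of its stage (234 CPM, beside 10.4 to 35.2 CPM), the most mesenchymal (797 CPM) and the most pericyte and smooth muscle markers (238 CPM). It was also the highest of E13 in Schwann cell (499.5 CPM) and endothelial (149 CPM) markers. The part of these cell types in the level of Arntl was not tested. Arntl also stood apart in P1 replicate 1, at 24.7 CPM beside 20.3 to 21.1 CPM (0.832). Per3 measured 17.4 CPM in E17 replicate 1, beside 11.99 to 12.1 CPM (0.986), and 24.9 CPM in P1 replicate 1, beside 35.9 to 37.5 CPM (0.876). Ciart measured 19.95 CPM in P60 replicate 2, beside 14.03 to 14.2 CPM (0.976). In P1 replicate 1, Arntl was high where Per3 was low, and values in this library also followed transcript GC content (slope -0.47), whose part in the levels of these genes was not tested.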

How the results depend on the processing

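The count of the 10 genes called was unchanged by the replicate block (3, 3, 1, 2, 4, 3 and 8 in the order of the 7 comparisons, the last being P60 against P1), and the block changed no call. Same-numbered libraries correlated at -0.20 to 0.57 in their deviations (over 0.1 in 33 of 84 pairs, beside 29 of 252 pairs with different numbers), and 17 of 28 libraries matched their own number best. Without a fold minimum the counts were 7 (E17 against E13), 7 (P1 against E17), 3 (P5 against P1), 5 (P14 against P5), 6 (P24 against P14), 6 (P60 against P24) and 10 (P60 against P1). Leaving out 1 library gave 2 to 5 genes for E17 against E13. There were 5 without E13 replicate 2, where Arntl at 1.04 and Per3 at 1.10 joined, and 2 without E13 replicate 4. For P1 against E17 there were 3 to 4 (4 without P1 replicate 4, with Per1 lower). For P5 against P1 there were 1 to 2, where Ciart joined without P1 replicate 2, P1 replicate 4 or P5 replicate 3. For P24 against P14 there were 3 to 4, where Cry1 was lost without P24 replicate 3. By limma-voom with all libraries, 4 genes were called for E17 against E13, as Per3 joined. With scaling by library size only the counts were 2, 4, 1, 2, 3, 3 and 9 (Cry1 joined between P1 and P60), and the median of all genes shifted from -0.08 to -0.33 (E17 against E13), 0.00 to -0.11 (P1 against E17), 0 to -0.19 (P5 against P1), 0 to -0.17 (P14 against P5), -0.0047 to 0.05 (P24 against P14), -0.0054 to 0.10 (P60 against P24) and -0.02 to -0.22 (P60 against P1). The share of calls that were higher then went from 40.1% to 28.7%, 53.8% to 43%, 69.4% to 44.7%, 59.1% to 46.2%, 57.1% to 64.9%, 42.7% to 52.5% and 57.2% to 47.5% in the order of the 7 comparisons. Differences near 0 changed sign. For P5 against P1, Per2 (0.02) was -0.18 by library size only, -0.012 without a low-count filter, -0.011 at 1 CPM in 4 libraries, -0.024 by limma-voom, -0.013 without E13, -0.066 without the 3 libraries with the steepest GC slopes, and -0.074 to 0.17 with 1 library left out. Nr1d1 (0.08) was -0.11, -0.051 and -0.11 by library size, limma-voom and without those 3, and -0.11 to 0.19 with 1 left out, and Tef was -0.045 by library size. For P14 against P5, Arntl was -0.059 and Cry1 -0.11 by library size. For P24 against P14, Per2 (-0.01) was 0.057 by library size, 0.00088 at 1 CPM in 4 libraries, 0.0025 by DESeq2, 0.044 by limma-voom, 0.0023 on the compared stages, 0.0047 without E13, 0.0019 without the 3 libraries, and -0.28 to 0.11 with 1 left out. Npas2 for P1 against E17 was -0.23 to 0.042 with 1 left out. The cause of these changes was not tested. The number of genes correlated with Arntl within stages, 1, was 0 with all 28 libraries, 0 without P1 replicate 1, 0 by library size only and 2 without the 2 libraries farthest from the median (Per3 and Tef). Without P1 replicate 1, r was -0.0029 for Cry1, 0.040 for Ciart and 0.077 for Nr1d1, and without the 2 farthest -0.024 for Cry1 and 0.063 for Ciart. Over the alternatives that left out no single library, 715 log2 fold changes of the 10 genes kept sign and call, 19 changed sign, 23 became calls (most without the fold minimum) and 3 lost theirs. Over all genes, dropping the fold minimum gave 11014, 5225, 3114, 5233, 964, 2845 and 10820 calls, beside 6276, 2074, 1033, 2127, 469, 1055 and 6292, and limma-voom gave 788 for P24 against P14. Over all libraries, Npas2 had the fewest reads of the 10 genes.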
